A study of Mus musculus with 4 samples.

Results

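Interferon-stimulated genes are the genes that cells switch on when interferons bind their receptors. The 38 genes described here were taken by symbol from a table of 24138 genes measured by bulk RNA sequencing, and all 38 were found. Its 4 livers came from C57BL/6J males at 18 weeks of age, all on the FAT-MASH diet and treated with resolvin D1 (RvD1). MASH stands for metabolic dysfunction-associated steatohepatitis, a liver disease with fat, inflammation and fibrosis, and RvD1 is a lipid mediator formed as inflammation resolves. The livers form 1 group, numbered 1 to 4 in the labels, which do not state the RvD1 dose or in words that each liver came from a different animal. Livers given the diet alone, vehicle or chow were not analysed here, so the values show level and spread within treated livers and cannot show an effect of RvD1 or of the diet. RNA came from whole liver, so that for genes of a minor cell type fewer cells and less RNA per cell cannot be told apart.

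Type I and type III interferons signal through the kinases JAK1 and TYK2 to a complex containing STAT2 and IRF9, which binds the interferon-stimulated response element (ISRE) in promoters. Interferon gamma, the type II interferon, acts through JAK1 and JAK2 on genes with a gamma-activated site (GAS). The induced proteins block viral replication, sense foreign nucleic acid, attack vacuoles that hold microbes, or adjust the response itself. In liver they can be made by hepatocytes, Kupffer cells (the resident macrophages), endothelial cells and infiltrating leukocytes.

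Promoter sequence is shown first. The genes were chosen by symbol and not by sequence. As a class they are induced through the ISRE and the GAS, so their matches are not independent of the choice. RefSeq promoter windows of build GRCm38.p6, running from 250 bases before to 50 bases after the transcription start, were matched for 29 of the 38 genes. The 9 unmatched genes were Usp18, Dhx58, Zbp1, Oas2, Mx1, Mx2, Ifi27, Parp14 and Iigp1. The ISRE was searched on both strands as GAAA, any 2 bases and GAAA again, and the GAS as TTC, any 3 bases and GAA, a pattern that is its own reverse complement. An ISRE match was present in 19 of 29 genes (65.5%), and in 3.99% of all 27025 genes with a promoter window. A GAS match was present in 10 of 29 genes (34.5%), and in 9.55% of all genes. Both were present in 8 of 29 genes, and in 0.614% of all genes. A match describes letters in a window and is not a binding site, and a window without a match shows only that these letters are not in it.

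The stretches below are, for each family, the ISRE match before the start of its most abundant gene with such a match, and every immunity-related GTPase (IRG) gene with one. The sensor genes had theirs after the start and are not shown. They run 5′ to 3′ on the strand of the gene, and capitals mark every ISRE or GAS match in the stretch.
Stat2, chr10:128270261-128270300, plus strand: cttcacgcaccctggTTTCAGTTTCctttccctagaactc
Isg15, chr4:156200860-156200911, minus strand: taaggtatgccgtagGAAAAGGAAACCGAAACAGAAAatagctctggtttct
Oas1a, chr5:120907526-120907560, minus strand: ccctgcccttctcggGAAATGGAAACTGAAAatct
Ifit3, chr19:34583358-34583431, plus strand: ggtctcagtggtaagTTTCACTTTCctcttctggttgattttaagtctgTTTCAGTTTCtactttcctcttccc
Bst2, chr8:71537572-71537623, minus strand: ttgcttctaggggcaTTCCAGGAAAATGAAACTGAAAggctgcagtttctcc
Gbp2, chr3:142620589-142620628, plus strand: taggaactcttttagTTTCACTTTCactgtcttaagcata
Irgm1, chr11:48871421-48871465, minus strand: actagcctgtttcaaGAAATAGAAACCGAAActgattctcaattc
Irgm2, chr11:58214887-58214937, plus strand: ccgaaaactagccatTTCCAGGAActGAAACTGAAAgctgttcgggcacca
Igtp, chr11:58199496-58199546, plus strand: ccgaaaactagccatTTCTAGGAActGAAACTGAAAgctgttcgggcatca
Tgtp1, chr11:48992299-48992349, minus strand: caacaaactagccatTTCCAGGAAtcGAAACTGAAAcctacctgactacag

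Isg15 held 3 overlapping ISRE matches in a row, and Bst2, Oas1a, Irgm1 and Gbp3 held 2 overlapping ones. In Bst2 the GAS match overlaps the first ISRE match, and in Ifitm3 a GAS match also overlaps an ISRE match. The IRG genes Irgm2, Igtp and Tgtp1 share an arrangement in which the GAS match begins 11 bases before the ISRE match, leaving 2 bases between them. This spacing was noticed in the sequences and then counted. It occurred in 5 of the 27025 genes, of which the other two were Tgtp2 and Gm12185, both genes whose transcripts share sequence with Tgtp1. Over the 51 bases printed, Irgm2 and Igtp were 96.1% identical, Irgm2 and Tgtp1 70.6%, and Igtp and Tgtp1 66.7%. These bases were printed for their matches, which fix part of them, and common descent was not tested. Genes of the same family are not taken here as independent cases.

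By family, an ISRE match was found in 3 of 3 guanylate-binding protein (GBP) genes, 4 of 4 IRG genes and 3 of 3 sensor genes with a window. It was found in 2 of 3 IFIT genes, 2 of 4 OAS genes and 3 of 7 other effectors. Of the transcription factors, Stat2 had a match and Irf7 and Irf9 had none, and of the ISG15 conjugation genes Isg15 had one and Trim25 had none. A GAS match was found in 3 of 4 IRG genes, 3 of 7 other effectors, 1 of 3 GBP, 1 of 3 IFIT and 1 of 3 sensor genes, and 1 of 4 OAS genes. None was found in the 3 transcription factor or the 2 ISG15 conjugation genes with a window. Differences between families were not tested. In all there were 28 ISRE matches, of which 23 lay before the start and 21 of these within 150 bases of it. For Ddx58, Ifih1, Eif2ak2 and Ifitm3 every ISRE match lay after the start. Transcript levels overlapped between genes with and without the motif. The 19 with an ISRE match had means from 0.543 to 628 FPKM with a median of 7.69 FPKM. The 10 without had means from 1.38 to 26.7 FPKM with a median of 6.36 FPKM. FPKM counts the sequenced fragments of a transcript relative to its length and to the size of the library.

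**Figure D1:**
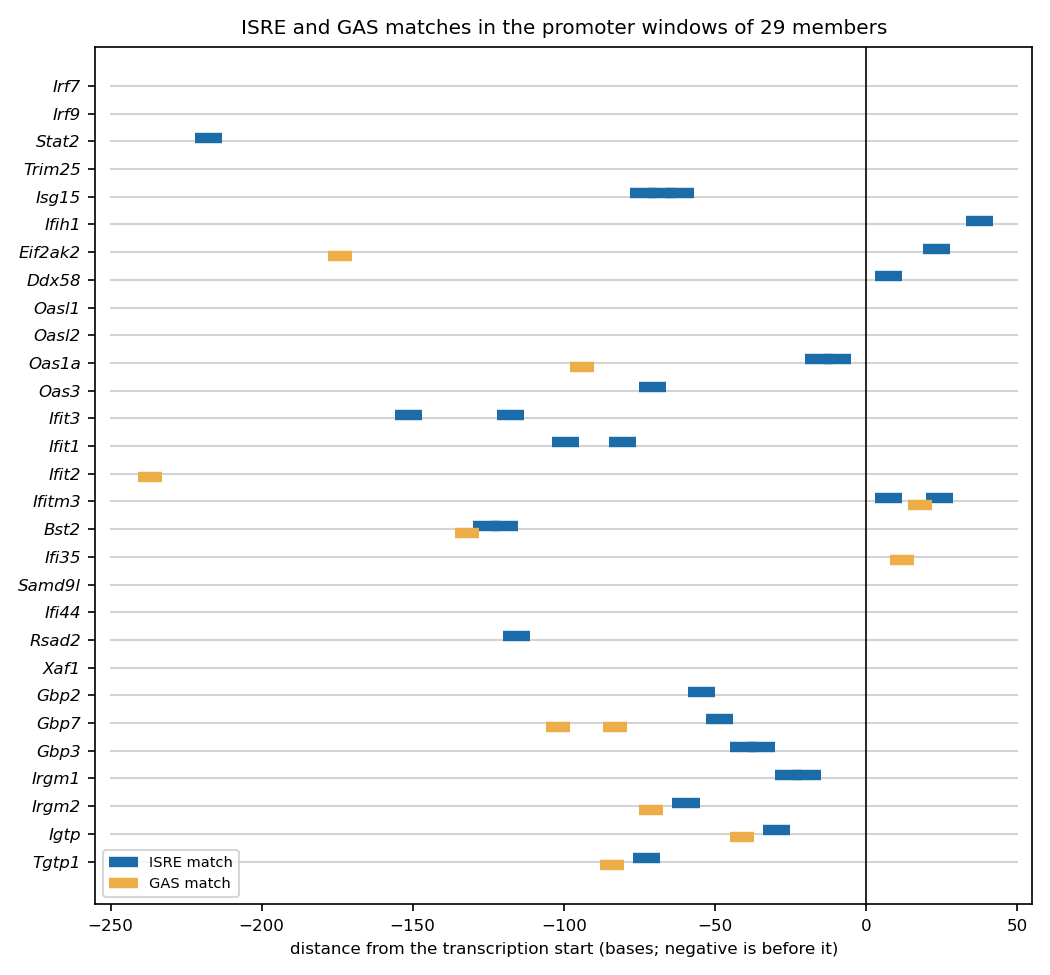
ISRE matches (blue) and GAS matches (yellow) along the promoter windows of 29 genes, with the distance in bases from the transcription start on the horizontal axis and a grey line for each window. Most ISRE matches (21 of 28) lie in the 150 bases before the start, and Irgm2, Igtp and Tgtp1 show a GAS match directly before the ISRE match.

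All 38 genes had a value above 0 in all 4 livers, and 35 had a mean of at least 1 FPKM and are called expressed. The median of the 35 means was 7.62 FPKM, beside 7.83 FPKM over all 10541 expressed genes, so that the set sits at the middle of the liver transcriptome. Of the 35, 14 (40.0%) lay between 1 and 5 FPKM, 17 (48.6%) between 5 and 50 FPKM and 4 (11.4%) at 50 FPKM or more. The corresponding shares of all expressed genes were 38%, 48.7% and 13.3%. Ifitm3, Bst2, Ifi27 and Iigp1 were the 4 abundant genes and made up 81.9% of the summed level. That sum was 1236, 1183, 1300 and 1351 FPKM in livers 1 to 4, a mean of 1267 ± 73.3 FPKM (SD, n = 4), and without the 4 abundant genes it was 226, 209, 230 and 255 FPKM. Liver 4 was highest and liver 2 lowest in both sums. The whole table also summed highest in liver 4, at 570681 FPKM beside 516816 to 524394 FPKM. After scaling each library by its median ratio to the others the sum of the 38 was 1244, 1201, 1314 and 1304 FPKM, highest in liver 3, and without the 4 abundant genes it was 227, 212, 233 and 246 FPKM, still highest in liver 4.

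Ordered by mean, most neighbouring genes had overlapping levels. Of the 37 pairs of neighbours, 32 had overlapping ranges over the 4 livers. The 5 separate steps lay between Ifitm3 and Bst2, Bst2 and Ifi27, Iigp1 and Irf7, Irf7 and Ifi35, and Ifit1 and Gbp2. Since both genes of a pair were measured in the same livers, their order can also be read within each liver. It was the same in all 4 livers for 9 pairs, the 5 above and Ifih1 over Oasl1, Zbp1 over Samd9l, Mx2 over Tgtp1 and Tgtp1 over Oas3, and differed between livers for 28. At the low end Tgtp1, Oas3 and Mx1 had means of 0.784, 0.543 and 0.414 FPKM and did not reach 1 FPKM. The depth was estimated at 18800000 to 20100000 fragments per liver, at which 1 fragment on a transcript of 1 kb is worth 0.0498 to 0.0531 FPKM.

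**Figure D2:**
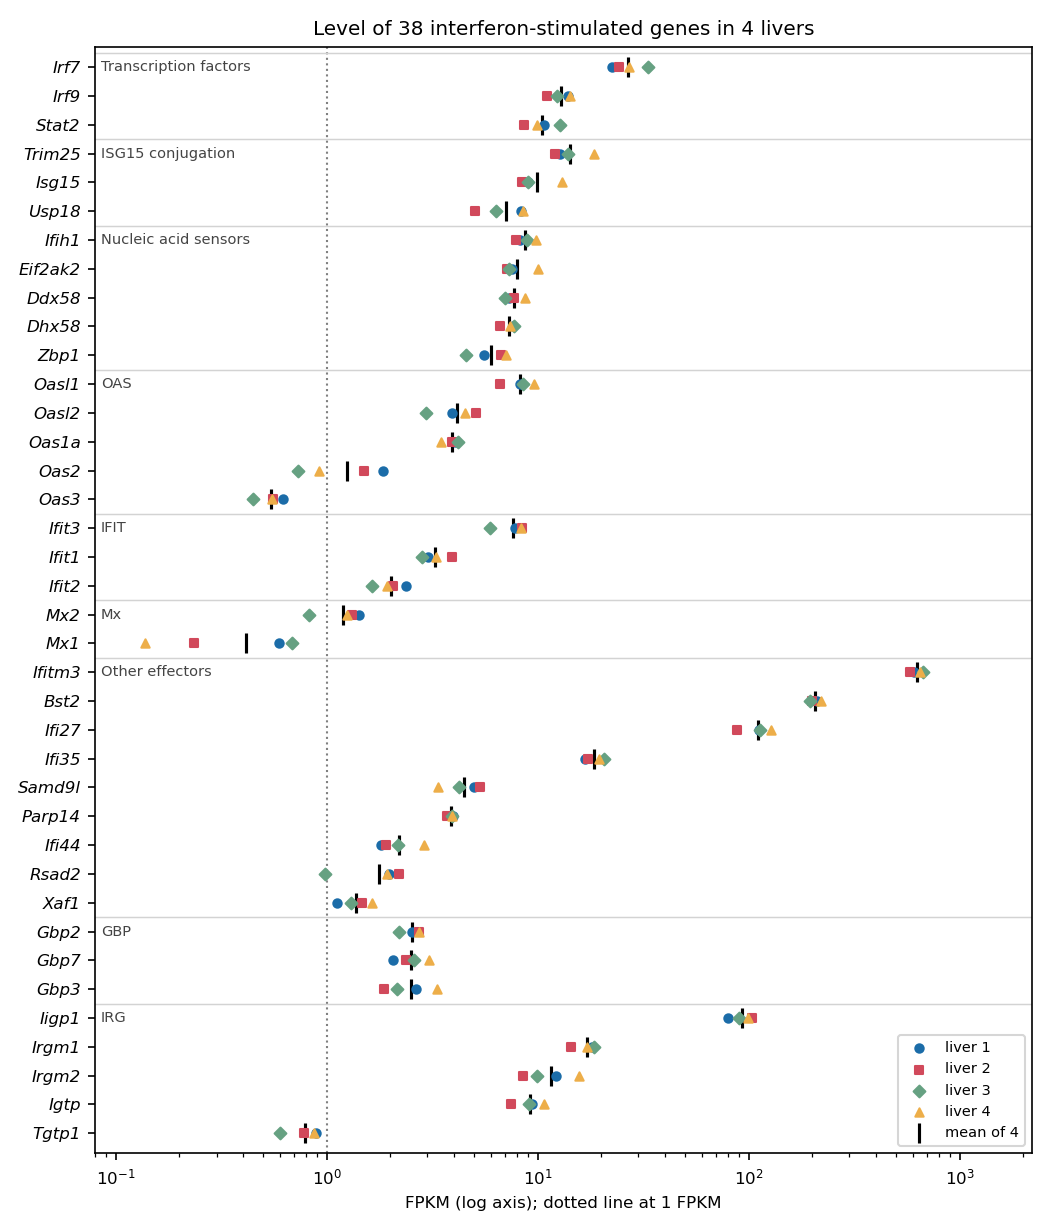
FPKM of 38 interferon-stimulated genes (log axis), grouped by role and ordered by mean within a role; each point is 1 liver, the black tick is the mean of 4, and the dotted line marks 1 FPKM. Ifitm3 stands alone at 582 to 672 FPKM, most genes lie between 1 and 50 FPKM with their 4 livers close together, and Mx1 is both lowest and most scattered.

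The transcription factors that carry the signal were all expressed. Irf7, which amplifies the production of type I interferon, had 22.4, 24.1, 33.3 and 27.1 FPKM (chromosome 7, 141263183 to 141266424), in the order of livers 1 to 4 used throughout. Stat2, the STAT particular to type I and type III signalling, was listed at 10.7, 8.57, 12.8 and 9.92 FPKM, and Irf9, its DNA-binding partner, at 14.0, 11.1, 12.3 and 14.2 FPKM. Irf7 and Stat2 were highest in liver 3, whereas Irf9 was highest in liver 4, or in liver 1 after the median-ratio scaling, so the factors did not share an order of livers.

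Isg15 encodes a small ubiquitin-like protein that is attached to other proteins, Usp18 the protease that removes it and dampens receptor signalling, and Trim25 a ubiquitin ligase that activates the sensor RIG-I. Isg15 was listed at 9.01, 8.41, 9.02 and 13.05 FPKM (chromosome 4, 156199424 to 156200818), with a mean of 9.87 ± 2.13 FPKM (SD, n = 4). Trim25 was listed at 12.7, 12.0, 13.9 and 18.5 FPKM. Usp18 was listed at 8.28, 5.03, 6.33 and 8.51 FPKM. All 3 were lowest in liver 2 and highest in liver 4, except that Usp18 was highest in liver 1 after the median-ratio scaling. Liver 4 lay above the second highest by 1.45-fold for Isg15 and 1.34-fold for Trim25, while the other 3 lay close together. For Usp18 livers 1 and 4 were nearly level, 1.03-fold apart. The enzymes that attach ISG15 were at 70.8 ± 6.80 FPKM for Ube2l6, the conjugating enzyme, 3.65 ± 0.657 FPKM for Uba7, the activating enzyme, and 2.11 ± 0.121 FPKM for Herc6, the ligase (each SD, n = 4).

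The nucleic acid sensors had similar levels. Ifih1 encodes MDA5 and Ddx58 encodes RIG-I, both cytoplasmic sensors of viral RNA, and Dhx58 encodes their regulator LGP2. Their means were 8.70 ± 0.831, 7.69 ± 0.736 and 7.33 ± 0.510 FPKM (each SD, n = 4), with overlapping ranges. Eif2ak2, which encodes the RNA-activated kinase PKR, was listed at 7.53, 7.16, 7.27 and 10.06 FPKM (chromosome 17, 78850505 to 78882572), so that liver 4 stood 1.33-fold above a tight group of 3. Zbp1, a sensor of Z-form nucleic acid that can trigger cell death, was listed at 5.54, 6.70, 4.56 and 7.10 FPKM and was lowest in liver 3. Of the 5 sensors, 4 were highest in liver 4, the exception being Dhx58.

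The OAS family makes or resembles enzymes that make oligoadenylates, which activate RNase L. Oasl1 was listed at 8.21, 6.61, 8.55 and 9.60 FPKM and Oasl2 at 3.92, 5.12, 2.95 and 4.501 FPKM. Although the pair lie side by side on chromosome 5 (114923240 to 114937911 and 114896934 to 114912245), liver 2 was the lowest for Oasl1 and the highest for Oasl2. Oas2 was listed at 1.84, 1.504, 0.731 and 0.920 FPKM, a 2.52-fold range that was the widest among the 35 expressed genes, on about 54 to 139 fragments per liver. Oas1a had a mean of 3.91 ± 0.315 FPKM and Oas3 of 0.543 ± 0.0710 FPKM (each SD, n = 4). Of the 100-base words in the annotated coding transcripts of Oas1a, 40.9% also occur in Oas1g, so reads could be divided between them, and Oas1g was listed at 0.887, 0.803, 1.06 and 0.357 FPKM.

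The IFIT proteins bind viral RNA and block its translation. Ifit1 was listed at 3.02, 3.91, 2.82 and 3.28 FPKM, Ifit2 at 2.38, 2.07, 1.65 and 1.93 FPKM and Ifit3 at 7.79, 8.43, 5.93 and 8.34 FPKM. Liver 3 was the lowest for all 3, and for Ifit3 the other 3 livers lay between 7.79 and 8.43 FPKM. These genes lie in a cluster on chromosome 19, Ifit2 at 34550694 to 34576534, Ifit3 at 34583529 to 34588982 and Ifit1 at 34640889 to 34650009. Ifit3 shares 31.7% of its 100-base words with Ifit3b, which was listed at 1.83, 1.75, 1.42 and 1.95 FPKM.

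Rsad2 and the Mx genes were low. Rsad2, which encodes viperin, an enzyme that makes a chain-terminating nucleotide, was listed at 1.97, 2.204, 0.982 and 1.94 FPKM (chromosome 12, 26442743 to 26456452). Liver 3 had about 69 fragments and the other livers about 131 to 153, and liver 3 lay 1.97-fold below the next lowest. Mx2, a dynamin-like GTPase, was listed at 1.42, 1.32, 0.821 and 1.24 FPKM, with liver 3 again lowest. Mx1, for which C57BL/6J mice carry a defective allele, was listed at 0.596, 0.235, 0.687 and 0.137 FPKM, on about 8 to 43 fragments. Its 5.03-fold range is therefore a range of small counts.

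Ifitm3 and Bst2 were abundant and varied little. Ifitm3, a membrane protein that stops viruses from fusing in endosomes, was listed at 608, 582, 672 and 650 FPKM (chromosome 7, 141009590 to 141010744). Bst2, or tetherin, which holds budding virions at the cell surface, was listed at 211, 200.2, 195 and 220 FPKM (chromosome 8, 71534262 to 71537437). The highest liver exceeded the lowest 1.15-fold for Ifitm3 and 1.13-fold for Bst2. Ifi27, a mitochondrial protein, varied more, at 111, 88.3, 113 and 128 FPKM. Its deposited span is also that of Ifi27l2a, which was listed at 29.8, 18.8, 14.0 and 22.7 FPKM, although the pair share none of their 100-base words.

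Among the remaining effectors, Parp14, an ADP-ribosyltransferase, had the narrowest range of all, at 3.97, 3.72, 3.91 and 3.93 FPKM. Ifi35 had 18.6 ± 1.84 FPKM, Samd9l, a translation-repressing restriction factor, 4.47 ± 0.865 FPKM, Ifi44 2.19 ± 0.481 FPKM and Xaf1, an antagonist of inhibitors of apoptosis, 1.38 ± 0.224 FPKM (each SD, n = 4). Samd9l ran against most of the set, with its lowest value, 3.37 FPKM, in liver 4 and its highest, 5.29 FPKM, in liver 2.

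GBP and IRG proteins are GTPases, induced above all by interferon gamma, that coat and disrupt vacuoles containing microbes. The GBP genes were low and level with each other, at 2.54 ± 0.243 FPKM for Gbp2, 2.49 ± 0.631 FPKM for Gbp3 and 2.52 ± 0.411 FPKM for Gbp7 (each SD, n = 4). Gbp3 was listed at 2.64, 1.87, 2.15 and 3.31 FPKM, with liver 4 highest and liver 2 lowest. Of the 100-base words of Gbp7, 9.59% also occur in Gm43802, so reads could be divided between them. The IRG genes spanned a far wider range of levels. Iigp1 (chromosome 18, 60376029 to 60392629) was listed at 79.5, 103, 90.3 and 98.6 FPKM, whereas Tgtp1 was listed at 0.889, 0.777, 0.599 and 0.872 FPKM. Of the 100-base words of Tgtp1, 70.3% also occur in Tgtp2, which was listed at 0.844, 0.652, 0.491 and 0.559 FPKM, so both values depend on how shared reads were assigned.

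Irgm1, Irgm2 and Igtp encode the regulatory IRG proteins that protect host membranes. Irgm2 (chromosome 11, 58214977 to 58222783) was listed at 12.2, 8.55, 9.90 and 15.7 FPKM, the largest SD of the set on the log2 scale (0.35). Its neighbour Igtp (58199556 to 58207592), which shares its promoter arrangement, was listed at 9.42, 7.49, 9.04 and 10.7 FPKM. Both ran liver 4, liver 1, liver 3, liver 2 from high to low. Irgm1 was listed at 18.0, 14.4, 18.5 and 17.2 FPKM, again lowest in liver 2. Tgtp1, which has the same promoter arrangement but lay below 1 FPKM, ran liver 1, liver 4, liver 2, liver 3. Of the 100-base words of Igtp 5.16% also occur in Irgm2, and of those of Irgm2 3.01% in Igtp. A link between promoter arrangement and order of livers was not tested.

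The spread between livers was taken as the SD of log2(FPKM + 1), a scale that understates differences near or below 1 FPKM. The median over the 35 expressed genes was 0.19, beside 0.16 over all expressed genes, and 21 of the 35 lay above that all-gene median. Only Oas2, Rsad2, Usp18 and Irgm2 (0.33, 0.31, 0.31 and 0.35) lay above the 90th percentile of all genes, 0.30. Parp14 (0.03) lay below the 10th percentile, 0.08, and Bst2 was almost on it. In FPKM, 23 of the 35 had a highest value under 1.5 times the lowest, beside 71.6% of all expressed genes, and Oas2 and Rsad2 exceeded 2 times.

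**Figure D3:**
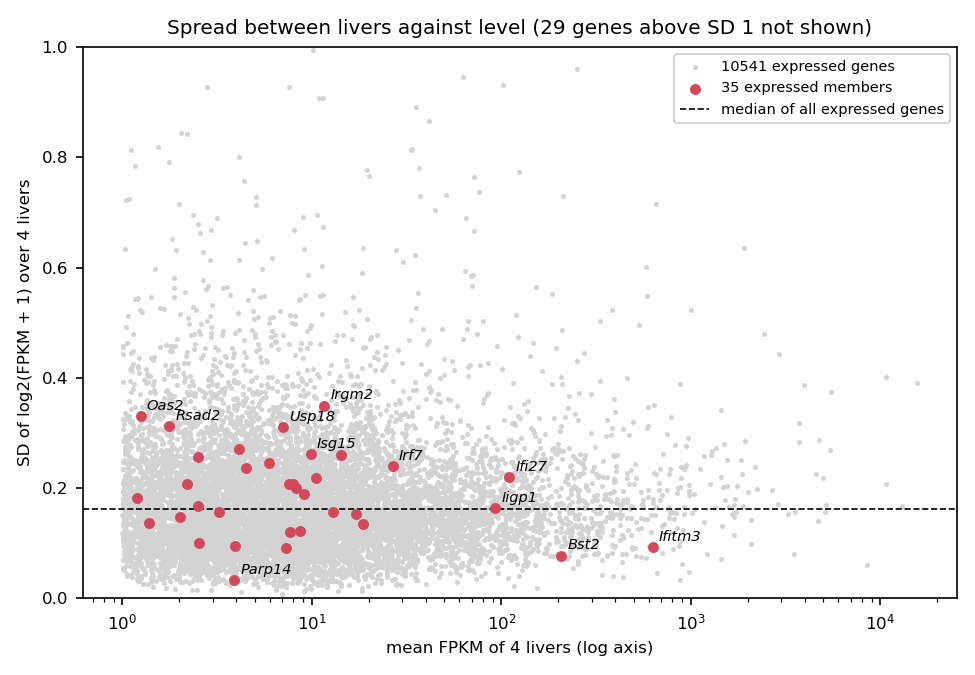
SD of log2(FPKM + 1) over 4 livers against mean FPKM (log axis) for 10541 expressed genes (grey) and 35 expressed interferon-stimulated genes (red); the dashed line is the median of all expressed genes, 0.16. The red points lie within the grey cloud, from Parp14 at 0.03 to Irgm2 at 0.35, and the abundant Ifitm3 and Bst2 lie low in it.

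Compared liver by liver, liver 4 held the highest value for 17 of the 35 genes (48.6%), beside 33.3% of all expressed genes. After the median-ratio scaling these became 14 of 35 and 23.3%, as Irf9, Usp18 and Bst2 were then highest in liver 1, and no gene changed its lowest liver. Liver 1 was the highest for 4 genes (17.9% of all genes), liver 2 for 7 (22.0%) and liver 3 for 7 (26.8%). The lowest value was in liver 2 for 16 genes (29.9% of all genes), in liver 3 for 11 (31.4%), in liver 1 for 6 (20.7%) and in liver 4 for 2 (18.1%). The 2 genes lowest in liver 4 were Oas1a and Samd9l. On the log2 scale the median deviation from the gene means was 0.03, -0.10, -0.06 and 0.12 in livers 1 to 4, beside -0.01, -0.02, -0.01 and 0.04 over all expressed genes. After the median-ratio scaling liver 4 had 0.08, beside -0.0001 over all genes. The value of liver 1 turned to -0.02 without liver 2 and to -0.01 without liver 3, and that of liver 3 was -0.0032 without liver 4.

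The 11 genes lowest in liver 3 were 31.4% of the 35, the same share as over all expressed genes. The 16 lowest in liver 2 were 45.7%, beside 29.9% of all expressed genes. Some families fell together, while the sensor, OAS and GBP genes were divided between livers. Liver 2 was lowest for all 3 genes of ISG15 conjugation, for Irgm1, Irgm2 and Igtp, and for Irf9, Stat2 and Ifitm3. The other genes lowest in it were Ifih1, Dhx58, Eif2ak2, Oasl1, Ifi27, Parp14 and Gbp3. Liver 3 was lowest for all 3 IFIT genes and for Rsad2, Mx2, Oas2, Oasl2, Zbp1, Ddx58, Bst2 and Gbp2. Of these liver 3 genes, Ifit1, Ifit3, Oasl2, Rsad2 and, by a very small margin, Gbp2 were highest in liver 2. These sets were read off the values, so their division by liver is a description with no test.

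**Figure D4:**
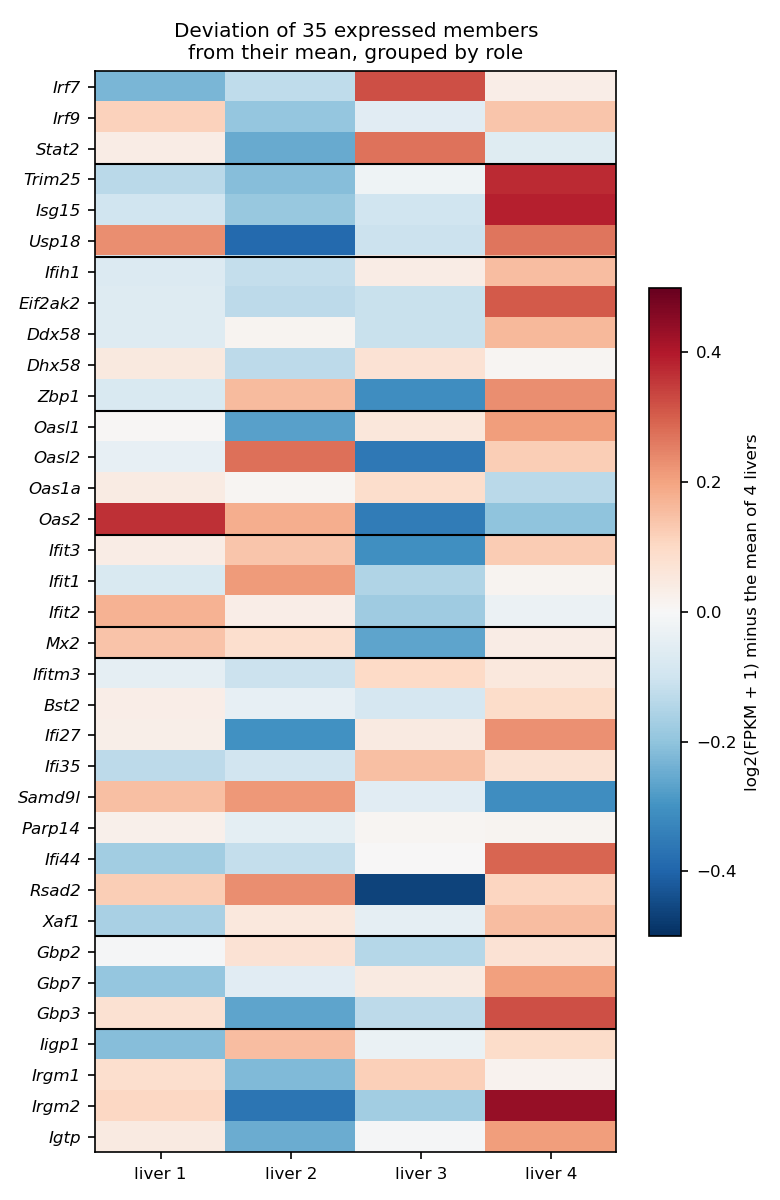
Deviation of log2(FPKM + 1) from the mean of 4 livers for 35 expressed genes (rows, grouped by role with black lines) in livers 1 to 4 (columns); red is above the mean and blue below it. Liver 4 is red for most rows (30 of 35 above their mean, 85.7%, beside 60.8% of all expressed genes), liver 2 is blue for ISG15 conjugation and most IRG rows, and liver 3 is blue for the IFIT rows, Mx2 and Rsad2.

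A gap ratio marked the genes in which 1 liver stood apart from the other 3. Dixon's ratio divides the gap between the most extreme value and its neighbour by the whole range, and is read against its 95% critical value for 4 samples. Of the 35 genes, 2 exceeded it, Isg15 and Eif2ak2, both high in liver 4. That is 5.71%, near the 5.46% of all expressed genes past the same value. With the genes divided by the liver that stood apart, the shares of all expressed genes were 0.873%, 1.34%, 1.94% and 1.32% for livers 1 to 4, and both interferon-stimulated genes fell under liver 4. Rsad2, with its low value in liver 3, had a ratio of 0.818, and with a pseudocount of 0.1 in place of 1 it also passed the critical value, at 0.836.

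The ligands upstream of these genes were almost all listed at 0. Of 21 interferon genes, 20, among them Ifnb1, Ifng, Ifnl2, Ifnl3 and 13 Ifna genes, were listed at 0 in all 4 livers, and Ifnk was listed at 0.348 FPKM in liver 2 and at 0 in the others. A 0 in this table can also be a missing estimate, since Alb, the albumin gene that hepatocytes express at very high level, and Apoe are listed at 0 in all 4. The receptors were present. Ifnar1 and Ifnar2, the chains of the type I receptor, had 6.03 ± 0.284 and 77.3 ± 10.4 FPKM, and Ifngr1 and Ifngr2, those of the type II receptor, 12.8 ± 1.35 and 15.3 ± 1.40 FPKM (each SD, n = 4). Ifnlr1, the specific chain of the type III receptor, was listed at 0.103, 0.260, 0.0914 and 0.233 FPKM, while its partner Il10rb had 10.4 ± 2.16 FPKM (SD, n = 4).

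The kinases of the pathway lay near the level of the induced genes. Jak1 had 20.96 ± 2.197 FPKM, Jak2 3.95 ± 0.185 FPKM and Tyk2 4.78 ± 0.524 FPKM (each SD, n = 4). Of the factors that start interferon production, Irf3 had 24.2 ± 3.11 FPKM and Irf1, a target of interferon gamma, 12.6 ± 1.47 FPKM, and the feedback inhibitor Socs1 had 0.725 ± 0.0983 FPKM (each SD, n = 4). Of 16 sensors, adaptors and factors 13 were expressed, with Tlr7, Tlr9 and Mb21d1, which encodes cGAS, below 1 FPKM. The median SD of log2(FPKM + 1) was 0.14 in the 5 expressed receptors.

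**Figure D5:**
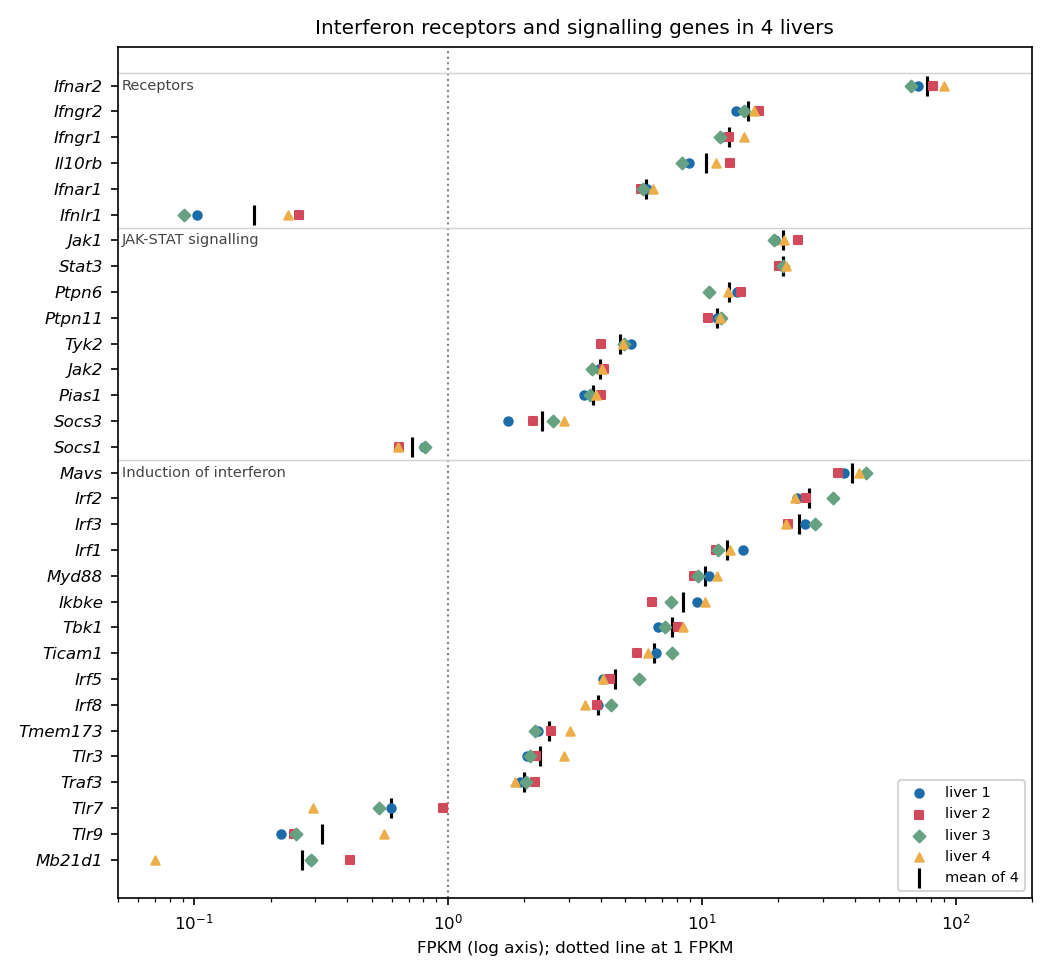
FPKM (log axis) of interferon receptors, JAK-STAT signalling genes and genes that induce interferon; each point is 1 liver, the black tick is the mean of 4, and the dotted line marks 1 FPKM. The type I and type II receptor chains lie between 5.8 and 90 FPKM, while Ifnlr1 lies below 0.3 FPKM in every liver.

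Markers of the cell types that could carry these transcripts moved between livers too. Hepatocyte markers were abundant, with summed levels of 22199 to 30695 FPKM for 6 of 6 expressed genes, highest in liver 4. That sum is carried by Apoa1, Ttr and Cyp2e1, while Cps1 and Hnf4a were highest in liver 3, at 748 and 156 FPKM. The whole table also summed highest in liver 4. In that liver 17 of the 35 interferon-stimulated genes were highest, beside 33.3% of all expressed genes. After the median-ratio scaling these were 14 of 35 and 23.3%. The 8 Kupffer cell and macrophage markers, 7 of them expressed, summed to 186, 245, 183 and 264 FPKM in livers 1 to 4, with livers 1 and 3 nearly level and below the other two. Liver 3, lowest for the IFIT genes, was also lowest for the sum of 4 monocyte markers, at 7.78, 7.29, 4.38 and 5.70 FPKM, and of 6 stellate cell and fibroblast markers, at 233, 295, 191 and 215 FPKM. Of these markers Chil3, Cx3cr1, Lrat and Pdgfrb were instead lowest in liver 4. The sum of 5 cholangiocyte markers, mostly Spp1, was also lowest in liver 3, at 233, 204, 192 and 213 FPKM. Sums of neutrophil, conventional dendritic cell and B cell markers were lowest in other livers. Liver 3 held the lowest value for 31.4% of all expressed genes. The 6 endothelial markers summed to 41.9, 54.5, 46.7 and 53.3 FPKM. Markers of plasmacytoid dendritic cells, a main source of type I interferon, summed to 3.47 to 3.60 FPKM, of which most was the broadly expressed Tcf4, and Siglech was listed at 0.148 to 0.411 FPKM. Markers of T and NK cells, a main source of interferon gamma, summed to 4.84, 5.23, 4.40 and 2.37 FPKM, with Ifng at 0 in all livers and 1 of 11 genes expressed. The part of these cell types in the values of the interferon-stimulated genes was not tested.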

How the data were processed

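The authors' deposited table holds 1 value per gene and liver, with a Cufflinks-style identifier, symbol and span. Its unit is not named and was taken to be FPKM, since the deposited values are not whole, their totals differ (516816 to 570681) and Cufflinks is named. The submitters' processing notes name mm10, FastQC 0.10.1, Trim Galore 0.6.3, cutadapt, STAR 2.7.6a and Cufflinks 2.2.1, without options; strandedness is not given in the sources used here. Columns were matched to livers through the sample descriptions, with 0 left over. No counts are held, so no count test was run, and with 1 group no test between groups was possible.

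Values were analysed as log2(FPKM + 1) in Python 3.11.15 with numpy 2.4.6 and pandas 2.3.3, and a gene whose 4 livers averaged 1 FPKM or more counted as expressed. Spans are printed with 1 added to the start, after which 52.2% of 22485 symbols had the RefSeq GRCm38 start (3.01% as deposited). Depth was estimated from genes with 1 annotated transcript over 800 bases in GENCODE vM21, from the FPKM step that a single fragment makes at a transcript length reduced by 200 bases. It is approximate, and so are the fragment numbers derived from it, which use the longest coding transcript. Shared sequence is the share of 100-base words of a gene's coding transcripts found in transcripts of other genes. Promoters were searched in RefSeq windows. The gap ratio and the deviations were tested on simulated data. All 38 genes are named by rule, other genes come from lists of the pathway and of cell type markers, and all were chosen with earlier results of these data known. Alternatives were other pseudocounts, level minimums, a median-ratio scaling, leaving out each liver, and other motif definitions and windows. 1 gene of the pathway lists is not reported here.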

Additional observations from a re-analysis of the deposited data

Results flagged for a closer look

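In 2 genes a single liver stood apart from the other 3 by Dixon's ratio, for which chance marks about 5% of groups of this size. Isg15 had a ratio of 0.843, with 13.05 FPKM in liver 4 and 8.41 to 9.02 FPKM in the others, on about 137 fragments in liver 4 and 90 to 101 in the others. Eif2ak2 had a ratio of 0.851, with 10.06 FPKM in liver 4 and 7.16 to 7.53 FPKM in the others, on about 779 fragments in liver 4 and 569 to 623 in the others. With median-ratio scaling the ratios were 0.831 and 0.854. None of 58 expressed genes of the receptor, signalling, induction and other interferon-induced lists exceeded the critical value.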

How the results depend on the processing

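Of 96 alternative values of the summary results, 8 fell outside the tolerance used and 88 within it. The tolerance was 1.5 times for counts and the median SD, and 1 SD for sums and deviations. Means and sums cannot move by 1 SD when 1 of 4 livers is left out, so those values say nothing about stability. With a minimum of 5 FPKM the expressed genes numbered 21, of which 0 were highest in liver 1 and 2 in liver 2, beside 15.5% and 19.8% of all genes. The median SD was 0.12 with a pseudocount of 5, beside 0.11 over all genes. Median-ratio scaling raised the genes highest in liver 1 to 7 (19.9% of all genes). Leaving out a liver gave 6 to 11 genes highest in liver 1 and 7 to 14 highest in liver 3, in each case with 1 liver fewer to compete. The 11 and the 14 were found without liver 4, when 29.8% and 35.9% of all genes were highest in those livers. Without liver 4 the median deviation of liver 2 went from -0.10 to -0.04 and that of liver 3 from -0.06 to -0.0032, beside -0.0036 over all genes. The ISRE motif with a C added at its end was found in 15 of 29 genes and in 0.944% of all genes. The 250 bases before the start alone held the shorter motif in 15 of 29 genes and in 3.46% of all genes. A GAS with a spacer of 3 or 4 bases was found in 13 of 29 genes and in 16.6% of all genes. Before the start alone the GAS was found in 8 of 29 genes and in 8.13% of all genes. No paired analysis was possible because there is a single group. Depth limits Mx1, Oas3, Tgtp1 and Mx2, which rest on fewer than 70 fragments per liver.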

Other observations

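Of 40 other interferon-induced genes outside the 38, all were above 0 in all 4 livers and 31 were expressed. The median of the 31 means was 3.90 FPKM, below the 7.62 FPKM of the 35 expressed genes of the set, and the median SD was 0.17. Ifitm2, the neighbour of Ifitm3, had 431 ± 35.2 FPKM, Lgals3bp, a secreted glycoprotein, 78.8 ± 4.99 FPKM and Parp12, an ADP-ribosyltransferase, 15.3 ± 0.548 FPKM (each SD, n = 4). Liver 4 was the highest for 10 of the 31 (32.3%), near the 33.3% of all expressed genes, and liver 3 the lowest for 13 (41.9%), beside 31.4% of all expressed genes. Gbp11 had 0.735, 1.17, 2.39 and 3.18 FPKM, a span of 4.33-fold on about 17 to 68 fragments, and Isg20, an exonuclease, 6.77, 4.91, 3.59 and 3.39 FPKM, in the order of livers 1 to 4. Both were picked after their values were seen.

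The IRG gene Gm4951, which lies near Iigp1 on chromosome 18, had 28.7, 29.7, 29.8 and 29.6 FPKM in the 4 livers, a span of 1.04-fold, while Iigp1 itself varied 1.30-fold. Iigp1 shares none of its 100-base words with other genes.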
